A study of Mus musculus with 47 samples.

Results

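Retinas of 20-month-old mice were compared with retinas of 6-week-old mice at a single time of day, ZT6, the middle of the light phase. Zeitgeber time (ZT) counts hours from lights on, and the animals lived under 12 h of light and 12 h of darkness. The aged side held replicates 1, 2 and 4 of the 20-month group, and the young side held replicates 1 to 4 of the 6-week group. All were wild-type C57BL/6 mice, a common inbred strain, with no treatment and no sex named in the labels, and the retina of the right eye of 1 mouse went into each library. These 7 libraries are part of 47 that were taken from both ages at 6 times, at intervals of 4 h. Messenger RNA was selected by its poly(A) tail and sequenced, and each value is an RPKM, reads per kilobase of exon and per M reads of the library. Genes entered when they had at least 0.5 RPKM in 3 or more of the 7 libraries, which held for 15174 of the 57180 genes in the table, or 26.5%. At that limit, 490 genes reached 0.5 RPKM in exactly 3 libraries, with a median highest value of 0.809 RPKM, and 657 genes reached it in exactly 2, with a median highest value of 0.714 RPKM.

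The retina turns light into nerve signals. Rods and cones catch the light, bipolar, horizontal and amacrine cells relay and shape the signal, ganglion cells send it to the brain, and Müller glia span and support all layers. In ageing rodents the tissue is known for low-grade activation of glia and immune genes, and many retinal genes follow the daily cycle. At a single time of day both ages are sampled at the same hour of the light cycle. An age difference there can be set against the same difference at the other times.

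The 7 libraries held 32.0 to 43.9 M reads each and 14635 to 15259 genes at 0.5 RPKM or more. Aged replicate 3, which was kept out of the contrast, had 42.4 M reads but stood apart in composition. The deviation of its genes from their median over all libraries had an SD of 0.76 on the log2 scale, against 0.26 to 0.33 in the 7 libraries, and followed the GC content of the transcripts with a Spearman correlation of -0.61, against -0.17 to 0.05. Mitochondrial genes took 5.60% of its reads and 3.16 to 4.21% of the reads of the 7. For the named genes called at ZT6, results with this library are given beside the results without it. The labels give no sequencing date or other batch. The labelled tissue was checked against rod markers. All 19 genes of the list were tested, and their summed level was 27664 to 32722 RPKM in the aged libraries and 24625 to 32053 RPKM in the young.

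At ZT6, 33 genes were called higher and 16 lower in the aged retina. A call required a fold over 1.5 together with an adjusted p below 0.05 (limma on log2(RPKM + 0.5), Benjamini-Hochberg adjustment over the 15174 genes), so the shares called were 0.217% higher and 0.105% lower, or 0.323% in either direction. Without the fold minimum, 37 genes rose (0.244%) and 25 fell (0.165%). The median log2 difference of all genes was -0.04. The called rises ran from 0.59 to 2.26 on the log2 scale with a median of 1.11, and the called falls from -0.61 to -1.99 with a median of -0.73. All 33 rises and all 16 falls had no overlap between the 3 aged and the 4 young libraries, against 3.41% of all genes that lay higher without overlap and 8.57% that lay lower. The calls were made on these same libraries, so the lack of overlap is no separate support for them. With aged replicate 3 added, 9 genes were called higher and none lower of 15335 tested, while 1116 genes had an unadjusted p under 0.05 in that fit. All 9 were among the 33, and replicate 3 lay above every young library for 26 of the 33 rises and below every young library for 14 of the 16 falls. Single libraries also moved the counts. The rises numbered 13 without aged replicate 1, 17 without young replicate 2 and 20 without young replicate 3. The falls numbered 3 without aged replicate 1, 3 without aged replicate 2, 2 without young replicate 2 and 1 without young replicate 3. In each of these 7 fits 14 genes were called throughout, of which Col4a3, Csrp3, Glb1l3, Gsc2, Tmem116, Pifo, Prok1, Tcea3, Bst1 and Htra1 are described here.

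**Figure D1:**
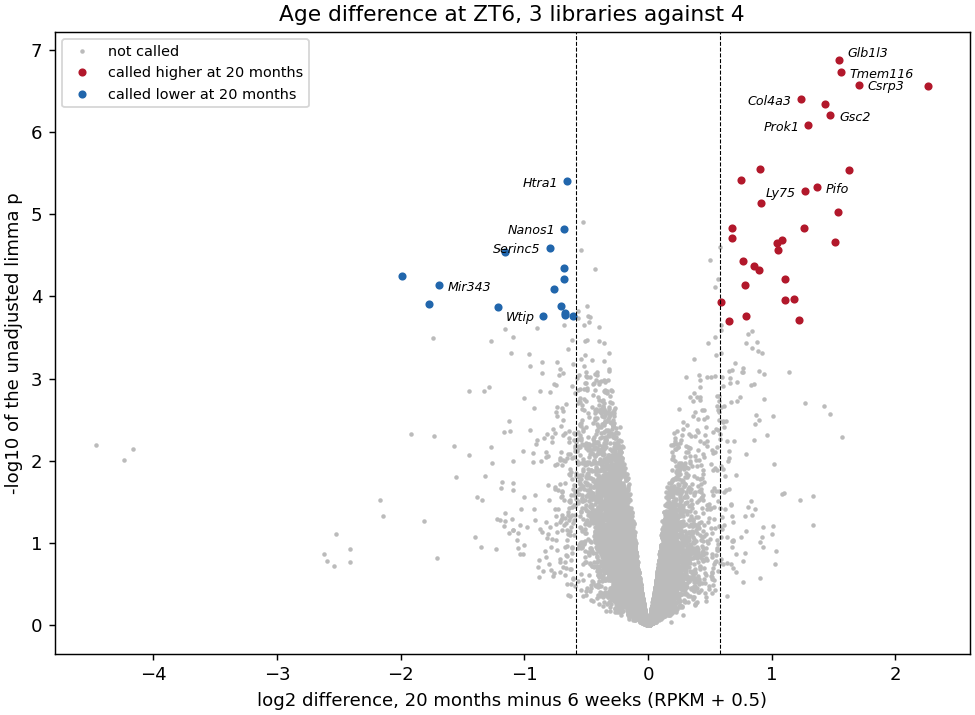
Each point is a gene, with the log2 difference of 20 months minus 6 weeks at ZT6 on the x axis and -log10 of the unadjusted limma p on the y axis; dashed lines mark a fold of 1.5. The 33 called rises reach 2.26, while the 3 grey points farthest to the left, between -4.16 and -4.46, are gamma-crystallins of the lens that were not called.

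Of the rises, 20 had a symbol that is no clone name or pseudogene, at least 2 RPKM in 1 age and no overlap, and the 14 largest are described together with 3 more that belong to gene lists. Because the lack of overlap was part of the choice, it is not repeated for each gene. Only 10 falls met the same conditions, and all are described.

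Promoter stretches of named rises and named falls that hold a common promoter motif are shown here, so that their letters can be compared. RefSeq promoters (GRCm38.p6, 250 bases before the annotated start) were matched by symbol for 10274 tested genes, 21 of the rises and 11 of the falls. The motif TATAAA, searched on both strands, was present in 801 of the 10274 (7.80%), in 6 of the 21 rises and in 0 of the 11 falls. The motif GGGCGG, a GC box form that cannot overlap TATAAA, was present in 64.0% of all, in 6 of the 21 rises and in 8 of the 11 falls. The E-box CACGTG, which clock factors bind, was present in 9.76% of all, in 0 of the 21 rises and in 1 of the 11 falls. These motifs were chosen after the calls were seen, and a match describes the letters only. Below are 60 bases of the named rises with TATAAA, with the motif in capitals, on the strand of the gene.
Gsc2, chr16:17915218-17915277, minus strand: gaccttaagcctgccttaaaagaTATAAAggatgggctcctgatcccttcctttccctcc
Pifo, chr3:106014715-106014774, minus strand: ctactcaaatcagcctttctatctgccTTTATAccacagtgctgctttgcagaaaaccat
Prok1, chr3:107239738-107239797, minus strand: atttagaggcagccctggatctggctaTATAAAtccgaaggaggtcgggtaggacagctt
H2-Q4, chr17:35379557-35379616, plus strand: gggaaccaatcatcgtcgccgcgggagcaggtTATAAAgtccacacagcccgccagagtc

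The motif begins 227 bases before the start in Gsc2, 101 in Pifo (opposite strand), 63 in Prok1 and 28 in H2-Q4. Of the 21 rises, H2-Q4 was the 1 with TATAAA on the gene's own strand between 40 and 20 bases before the start, a place held by the motif in 1.41% of all 10274 promoters. The named falls with GGGCGG were Wtip, Serinc5, Gulp1, Nanos1, Gas1, Htra1 and Snrnp70, and the 5 with the largest log2 differences are shown, again with 60 bases and the motif in capitals.
Wtip, chr7:34133301-34133360, minus strand: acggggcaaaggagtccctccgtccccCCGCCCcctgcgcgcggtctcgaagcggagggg
Serinc5, chr13:92611053-92611112, plus strand: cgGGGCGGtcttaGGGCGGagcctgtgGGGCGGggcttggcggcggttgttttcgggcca
Gulp1, chr1:44551421-44551480, plus strand: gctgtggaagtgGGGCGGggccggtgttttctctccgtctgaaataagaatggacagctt
Nanos1, chr19:60755916-60755975, plus strand: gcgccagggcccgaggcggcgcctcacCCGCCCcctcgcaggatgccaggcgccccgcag
Gas1, chr13:60177647-60177706, minus strand: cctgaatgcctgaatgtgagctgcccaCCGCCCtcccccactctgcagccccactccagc

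The largest named rise was a gene of muscle. Csrp3 encodes the muscle LIM protein of heart and skeletal muscle. It had 4.59, 4.77 and 4.75 RPKM in the aged libraries and 1.11, 0.912, 1.01 and 1.40 RPKM in the young. The 3 aged values lay close together, far above the young ones. The log2 difference was 1.70 ± 0.12 (SE), with a limma adjusted p of 0.00105, and 1.59 with replicate 3, which was at 3.28 RPKM (adjusted p = 0.00937). The skeletal muscle list as a whole did not move with it. Its summed level was 3.47 to 4.34 RPKM in the aged libraries and 3.65 to 4.74 RPKM in the young, with 2 of its 12 genes above the filter and Myh2 at 0 in all 8 libraries.

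Glb1l3 encodes a protein of the beta-galactosidase family and was the most abundant of the named rises. It had 50.5, 48.1 and 50.2 RPKM in the aged libraries, against 18.3, 18.5, 16.5 and 13.98 RPKM in the young. Aged replicate 3, at 72.9 RPKM, was higher still. This gave a log2 difference of 1.54 ± 0.10 (SE, adjusted p = 0.00105) and 1.68 with replicate 3 (adjusted p = 0.00865).

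Tmem116 encodes a membrane protein. Its level was 5.62, 5.82 and 6.13 RPKM in aged retinas and 1.99, 1.67, 1.49 and 1.52 RPKM in young, with replicate 3 between them at 3.41 RPKM. The log2 difference was 1.56 ± 0.10 (SE), at an adjusted p of 0.00105, and with replicate 3 it was 1.38 at 0.0501. An exon of Tmem116 overlaps Erp29 and Adam1a on the other strand, and whether the counting used strand is not stated in the sources used here. Neither passed the test, with log2 differences of 0.11 for Erp29 and 0.02 for Adam1a. Ly75, Col4a3, Bst1, Dennd2a, Gas1, H2-Q4, Rfc4 and Hnrnpl also share exon positions with another gene, and their reads carry the same uncertainty.

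**Figure D2:**
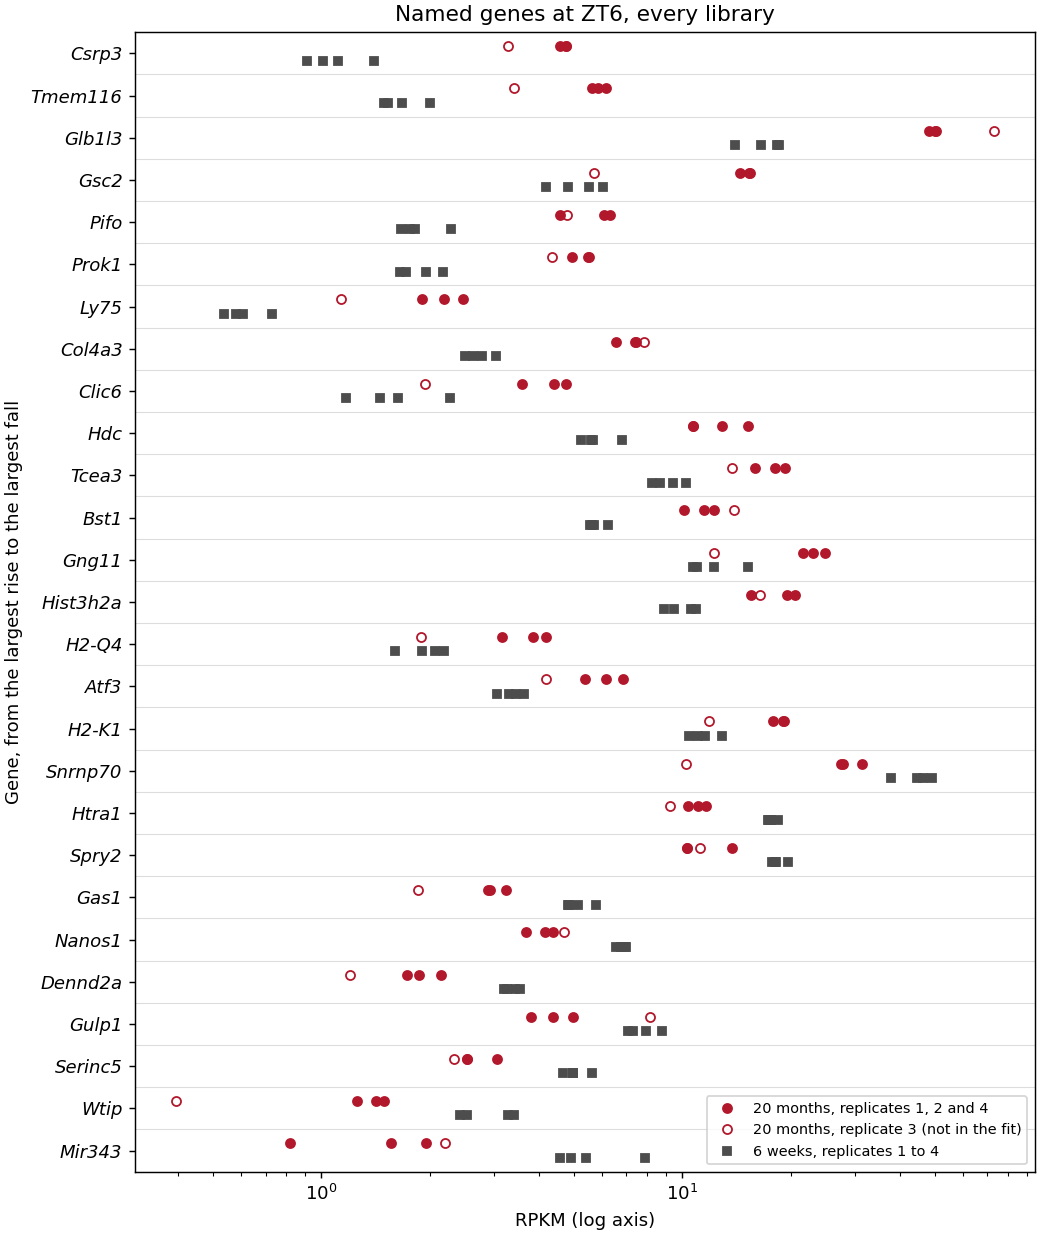
Every ZT6 library for the 27 named genes, on a log axis of RPKM, with 20-month libraries as circles above the 6-week squares and aged replicate 3 as an open circle. Glb1l3 is the highest of the rises at 48.1 to 50.5 RPKM, and replicate 3 falls among the young libraries for Gsc2, Clic6, Gng11, H2-Q4, H2-K1 and Gulp1.

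A transcription factor and a secreted peptide followed. Gsc2, a goosecoid-type homeobox factor, had 14.4, 15.3 and 15.4 RPKM in aged libraries and 6.03, 4.82, 5.52 and 4.19 RPKM in young ones. Replicate 3 sat within the young range at 5.69 RPKM, so that the log2 difference of 1.47 ± 0.11 (SE, adjusted p = 0.00137) became 1.14 with it (adjusted p = 0.462). Prok1 encodes prokineticin 1, a secreted peptide that acts on endothelial cells. It had 4.94, 5.504 and 5.46 RPKM in aged retinas and 1.65, 2.17, 1.94 and 1.71 RPKM in young ones, a log2 difference of 1.30 ± 0.10 (SE, adjusted p = 0.00158), and 1.23 with replicate 3 (adjusted p = 0.0102). Its exons overlap those of the antisense gene A630076J17Rik, which rose as well, by 1.04 (adjusted p = 0.0143), and the reads of the 2 cannot be told apart here.

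Pifo, named pitchfork for its role at primary cilia in the mouse, had 4.58, 6.06 and 6.31 RPKM in aged libraries and 1.76, 1.66, 2.28 and 1.82 RPKM in young. The aged libraries were all high and the young all low. Aged exceeded young by a log2 difference of 1.36 ± 0.13 (SE, adjusted p = 0.005500), and it held with replicate 3 at 1.31 (adjusted p = 0.0144).

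Col4a3 encodes the alpha-3 chain of collagen IV, a basement membrane collagen whose loss causes Alport disease of kidney, ear and eye. It had 7.39, 6.56 and 7.44 RPKM in aged retinas and 2.79, 2.63, 2.51 and 3.05 RPKM in young retinas. Replicate 3 lay above all of them at 7.81 RPKM. The log2 difference was 1.24 ± 0.09 (SE, adjusted p = 0.00116), and with replicate 3 it had the smallest adjusted p of the named genes, 0.00438. Its partner chain in the same collagen network, Col4a4, was looked at after its values were seen. It had 2.28, 2.15 and 2.51 RPKM in aged libraries and 1.32, 1.36, 1.37 and 1.44 RPKM in young libraries, and missed the threshold at 0.59 ± 0.10 (SE, adjusted p = 0.0525).

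Genes of immune and signalling function made up the next group. Ly75, the endocytic receptor DEC-205 of dendritic cells, was low in both ages, with 2.47, 1.90 and 2.19 RPKM in aged libraries and 0.536, 0.579, 0.607 and 0.732 RPKM in young (log2 difference 1.27 ± 0.13, SE; adjusted p = 0.00574). Bst1, the ADP-ribosyl cyclase CD157, had 12.2, 10.1 and 11.5 RPKM in aged and 6.23, 5.70, 5.64 and 5.54 RPKM in young retinas (0.90 ± 0.08, SE; adjusted p = 0.00436). Hdc, the enzyme that makes histamine, had 12.9, 10.7 and 15.2 RPKM in aged and 6.80, 5.57, 5.65 and 5.22 RPKM in young retinas (1.08 ± 0.13, SE; adjusted p = 0.0141). In RPKM, the aged libraries of these 3 genes spread more widely than the young, with an SD of 2.28 RPKM in aged and 0.684 RPKM in young for Hdc. The aged means were higher too, and spread relative to the mean was not compared. With replicate 3, Bst1 passed (limma adjusted p = 0.0279), and Ly75 (0.172) and Hdc (0.0611) did not.

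Clic6, of the chloride intracellular channel family, averaged 4.26 ± 0.602 RPKM in aged and 1.63 ± 0.468 RPKM in young libraries (SD, n = 3 and 4), a log2 difference of 1.18 (adjusted p = 0.0372). Gng11, a G protein gamma subunit, averaged 23.1 ± 1.58 RPKM in aged and 12.3 ± 2.05 RPKM in young libraries, a difference of 0.90 (adjusted p = 0.0204). Tcea3, a transcription elongation factor of the TFIIS type, averaged 17.7 ± 1.69 RPKM in aged and 9.16 ± 0.876 RPKM in young libraries, a difference of 0.91 (adjusted p = 0.00737). Hist3h2a, a histone H2A gene with polyadenylated transcripts in these libraries, averaged 18.5 ± 2.69 RPKM in aged and 9.96 ± 0.936 RPKM in young libraries, a difference of 0.86 (adjusted p = 0.0204). Histone genes have near-identical copies, and an exon of this one overlaps Trim17 on the same strand, so its reads are uncertain. Trim17 averaged 6.86 RPKM in aged and 4.48 RPKM in young libraries. Its log2 difference was 0.55, which did not pass (limma adjusted p = 0.197). With replicate 3, none of these 4 passed, at adjusted p-values of 0.501 for Clic6, 0.614 for Gng11, 0.0976 for Tcea3 and 0.0976 for Hist3h2a.

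The falls were smaller in size than the rises. Htra1, a secreted serine protease whose human locus is linked to age-related macular degeneration, fell with the smallest p. It had 11.1, 10.4 and 11.6 RPKM in the aged libraries and 18.4, 17.2, 17.4 and 17.6 RPKM in the young. Both groups were tight, and the log2 difference was -0.66 ± 0.06 (SE, adjusted p = 0.00507). Replicate 3 was lower still at 9.26 RPKM, yet the fit with it gave an adjusted p of 0.0611.

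Serinc5, a membrane protein that restricts retroviral particles in human cells, had 3.07, 2.53 and 2.53 RPKM in aged and 4.99, 5.61, 4.66 and 4.96 RPKM in young retinas (-0.79 ± 0.10, SE; adjusted p = 0.0147). Nanos1, an RNA-binding protein of the Nanos family, had 4.38, 4.16 and 3.69 RPKM in aged and 6.95, 6.75, 6.97 and 6.56 RPKM in young retinas (-0.68 ± 0.08, SE; adjusted p = 0.0114). Replicate 3 was at 2.33 RPKM for Serinc5 and 4.68 RPKM for Nanos1, below every young library, but neither passed in the fit with it (limma adjusted p = 0.0611 for Serinc5 and 0.108 for Nanos1).

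Spry2 and Gas1 act on growth factor signals, Spry2 as a feedback inhibitor of receptor tyrosine kinases and Gas1 as a co-receptor for hedgehog ligands. Spry2 had 10.3, 10.3 and 13.8 RPKM in aged libraries and 18.02, 17.7, 19.6 and 18.2 RPKM in young ones (-0.67 ± 0.10, SE; adjusted p = 0.0459). Gas1 had 2.89, 2.94 and 3.25 RPKM in aged libraries and 4.85, 5.12, 5.77 and 4.82 RPKM in young ones (-0.68 ± 0.09, SE; adjusted p = 0.0204). Neither passed with replicate 3, at adjusted p-values of 0.136 for Spry2 and 0.220 for Gas1.

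Wtip, a LIM protein of the Ajuba family, averaged 1.39 ± 0.121 RPKM in aged and 2.91 ± 0.513 RPKM in young retinas (SD, n = 3 and 4), a log2 difference of -0.85 (adjusted p = 0.0459). Gulp1, an adaptor of cell engulfment, averaged 4.39 ± 0.596 RPKM in aged and 7.76 ± 0.777 RPKM in young retinas, a difference of -0.76 (adjusted p = 0.0288). Dennd2a, a DENN-domain activator of Rab proteins, averaged 1.92 ± 0.214 RPKM in aged and 3.36 ± 0.154 RPKM in young retinas, a difference of -0.68 (adjusted p = 0.0240). Replicate 3 went against the call for Gulp1 at 8.12 RPKM, within the young range, and lay below every other library for Wtip at 0.396 RPKM. None of the 3 passed with it, at limma adjusted p-values of 0.374 for Wtip, 0.662 for Gulp1 and 0.191 for Dennd2a.

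Snrnp70 encodes the U1-70K protein of the U1 small nuclear ribonucleoprotein, which recognises the start of introns. It had 27.9, 27.6 and 31.4 RPKM in the aged libraries and 37.9, 49.1, 46.5 and 44.6 RPKM in the young. The log2 difference was -0.61 ± 0.10 (SE, adjusted p = 0.0459), the smallest size among the called falls, and replicate 3 was far lower at 10.2 RPKM. The fit with it gave -0.97 at a limma adjusted p of 0.614.

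The largest named fall rests on very few reads. Mir343 had 0.819, 1.56 and 1.95 RPKM in aged libraries and 4.90, 4.58, 5.41 and 7.89 RPKM in young ones, which correspond to 2, 4 and 5 reads in aged libraries and 13, 11, 15 and 26 reads in young ones, with each mate of a pair counted. Limma gave a log2 difference of -1.69 ± 0.24 (SE, adjusted p = 0.0271), and -1.56 with replicate 3 (adjusted p = 0.0976). The interval lies in an exon of Ercc2 on the same strand, a DNA repair helicase that averaged 9.91 ± 0.707 RPKM in aged and 11.2 ± 1.11 RPKM in young libraries and did not pass (adjusted p = 0.570). Reads of such poly(A)-selected libraries over a hairpin do not measure the mature microRNA. For identification, the RefSeq mature sequence at chr7:19386688-19386707 (GRCm38.p6, plus strand), with its seed of bases 2 to 8 in capitals, is given next.
mmu-miR-343: uCUCCCUUcaugugcccaga

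In all, 2 of the 33 rises and 4 of the 16 falls had under 100 reads in every library. Clone names, missing symbols or pseudogenes accounted for 9 of the rises and 5 of the falls. Among genes that reached 0.5 RPKM in exactly 3 libraries, 5 were called, and for a rise the filter was then passed through the aged group alone.

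Of the 41 gene lists, 3 held a member that passed the test. Over 583 distinct members tested, 4 rose and none fell at an adjusted p under 0.05, against 0.244% and 0.165% of all genes. At an unadjusted p under 0.05 the lists held 35 higher and 44 lower members, together 13.6% of the members, beside 2.9% higher, 8.37% lower and 11.3% in all over the genes tested. Adding replicate 3 left 1 member that rose, Col4a3.

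Antigen presentation had 2 risen members of 13 tested. H2-K1, a classical class I histocompatibility gene, had 19.0, 19.2 and 17.8 RPKM in aged retinas and 11.6, 10.4, 12.9 and 11.05 RPKM in young ones (log2 difference 0.68 ± 0.08, SE; adjusted p = 0.0141). H2-Q4, a class I gene of the Q region, had 4.19, 3.85 and 3.16 RPKM in aged retinas and 2.07, 1.599, 2.19 and 1.89 RPKM in young ones (0.79 ± 0.12, SE; adjusted p = 0.0459). Class I genes are close copies of each other, so reads may be shared between them. Replicate 3 lay within the young range for both, at 11.9 RPKM for H2-K1 and 1.89 RPKM for H2-Q4, and neither passed with it (adjusted p = 0.578 for H2-K1 and 0.653 for H2-Q4). The list's median log2 difference was 0.15, beside -0.04 for all genes, and 11 of 13 members were positive.

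Other immune lists had no member past the threshold at ZT6. Complement had 9 of 9 tested members positive with a median of 0.10, and 4 of them had an unadjusted p under 0.05. The interferon response list had 5 positive and 14 negative members and a median of -0.07. Microglia and macrophage markers had a median of 0.18 over 10 tested genes. Their summed level was 27.2, 24.0 and 27.6 RPKM in aged libraries and 20.7, 19.1, 23.8 and 24.9 RPKM in young ones, which overlap. Of the T and B lymphocyte list 1 of 12 genes was tested, with Cd3g at 0 in all 8 libraries.

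Among stress lists, Atf3 rose. This stress-induced transcription factor had 6.85, 5.37 and 6.13 RPKM in aged retinas and 3.47, 3.64, 3.32 and 3.06 RPKM in young retinas (0.77 ± 0.10, SE; adjusted p = 0.0183), and the fit with replicate 3 gave 0.65 at an adjusted p of 0.374. It stands in the immediate early list, where 15 of 16 tested genes were positive with a median of 0.24. That median was -0.03 with replicate 3. Reactive gliosis and retinal stress had no passing member of 18 and a median of 0.15. Heat shock and chaperone genes had a median of 0.03 over 25, glucocorticoid response genes 0.03 over 12, antioxidant genes 0.07 over 20, and senescence and DNA damage genes -0.05 over 11, with no passing member in any. With replicate 3 the medians turned to -0.05 for gliosis, -0.05 for glucocorticoid response and -0.11 for antioxidant genes.

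The basement membrane and matrix list had Col4a3 as its single risen member of 14. Col4a3 and Col4a4 were its 2 positive members, both with an unadjusted p under 0.05. The other 12 were negative, 6 of them with an unadjusted p under 0.05 and none past the adjusted test, and the list median was -0.44.

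Cell type lists of the retina had no member that passed. Rod genes had a median log2 difference of 0.05 over 19, cone genes -0.09 over 14, bipolar genes -0.26 over 16, amacrine genes -0.01 over 13, ganglion cell genes 0.08 over 16 and Müller glia genes -0.22 over 17. The unadjusted p was under 0.05 for 5 lower bipolar genes and for 6 lower and 1 higher Müller genes. With replicate 3 the ganglion cell median turned to -0.12. Horizontal cell markers were the retinal list whose summed levels did not overlap, at 67.9, 59.5 and 70.5 RPKM in aged libraries and 72.5, 71.5, 77.7 and 75.2 RPKM in young ones. The exact permutation test of the mean log2 sum gave p = 0.0286, which is the smallest that 3 against 4 libraries allow, and 0.343 after adjustment over 18 lists. A single list could thus not pass after adjustment, whatever its levels. In whole tissue, fewer cells of a type and less RNA per cell cannot be told apart. Astrocyte, endothelium, and pericyte and smooth muscle lists had 5, 7 and 2 tested genes and medians of -0.06, -0.09 and -0.07.

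Among markers of neighbouring tissue and blood, lens, cornea, red blood cell and pigment epithelium sums varied widely between libraries, and ciliary body and iris sums little. Lens genes summed to 22.3, 76.1 and 74.2 RPKM in aged libraries and 227, 734, 943 and 24.4 RPKM in young ones. Young replicate 4 thus lay within the aged range and the other young libraries above it. All 17 tested lens genes were lower in the aged group, with a median of -2.41 and differences from -1.16 to -4.46, and none passed. The exact p for the sum was 0.200 (adjusted 0.600). Red blood cell genes summed to 64.5, 47.4 and 82.8 RPKM in aged and 97.3, 28.3, 14.2 and 27.3 RPKM in young libraries. Retinal pigment epithelium genes summed to 65.2, 32.3 and 26.7 RPKM in aged and 25.9, 43.9, 24.4 and 18.6 RPKM in young libraries. Ciliary body and iris genes summed to 97.8, 95.4 and 105 RPKM in aged and 93.5, 88.4, 86.1 and 72.2 RPKM in young libraries (exact p = 0.0571, adjusted 0.343). Cornea and conjunctiva genes summed to 0.439 to 0.709 RPKM in aged and 0.782 to 4.64 RPKM in young libraries, with Lum and Kera at 0 in all 8. The part of these tissues in the called differences was not tested.

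**Figure D3:**
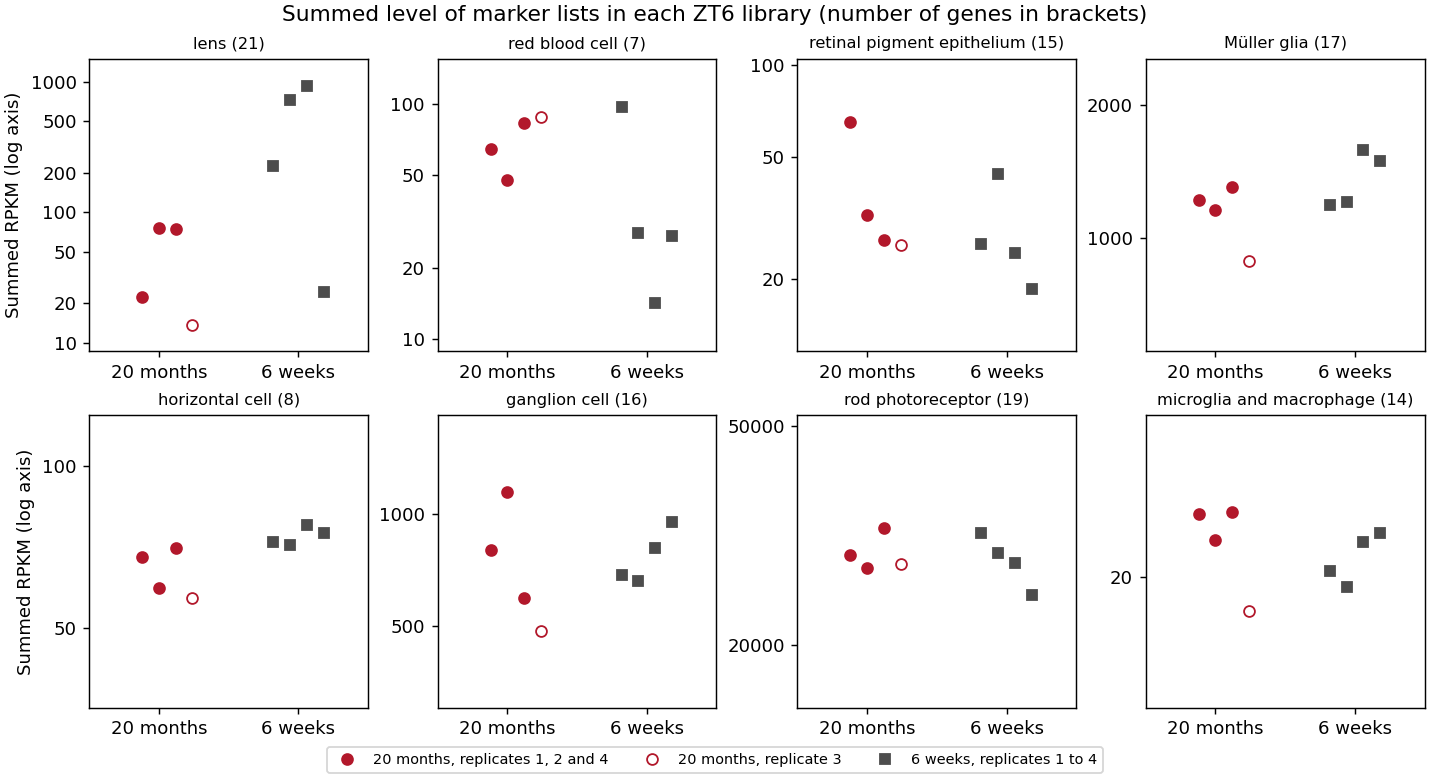
Summed RPKM of 8 marker lists in every ZT6 library, on log axes, with 20-month libraries on the left and 6-week libraries on the right of each panel. Lens markers span 24.4 to 943 RPKM among the young libraries alone, while rod markers stay between 24625 and 32722 RPKM in the 7 libraries compared.

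Lists of metabolism and retinal function had medians near that of all genes at ZT6 and no passing member there. The medians were -0.02 over 37 complex I genes, 0.09 over 13 mitochondrially encoded genes, 0.01 over 21 glycolysis genes, 0.10 over 23 cholesterol synthesis genes, 0.07 over 18 visual cycle genes, -0.02 over 24 ribbon synapse genes, -0.05 over 9 dopamine and melatonin genes and -0.05 over 15 insulin and IGF genes. Cell cycle and replication genes had a median of 0.03 over 11. Cytosolic ribosomal protein genes had a median of -0.00 over 76. With replicate 3 the medians turned to -0.02 for cholesterol synthesis, -0.04 for visual cycle, -0.16 for glycolysis and -0.10 for cell cycle genes. Of 23 tested core clock genes, none passed. Their differences ran from -0.40 to 0.17 with a median of -0.08, and 16 were negative, of which 5 had an unadjusted p under 0.05. The sex-linked and substrain lists had medians of -0.17 over 4 and -0.11 over 3 with no passing member, and the substrain median turned to 0.09 with replicate 3. Such medians do not give the sex or substrain of each mouse, which was not tested.

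The mice of the other 5 times gave the same age contrast in libraries that ZT6 did not use. Young ZT10 replicate 4 was left out there, since its deviation SD was 1.03 on the log2 scale, and with it the counts below at an adjusted p under 0.05 became 362 and 176. Over ZT2, ZT10, ZT14, ZT18 and ZT22, 910 genes rose (6%) and 863 fell (5.69%) at an adjusted p under 0.05, and 62 rose (0.409%) and 8 fell (0.0527%) by a fold over 1.5. This fit held 38 libraries and the ZT6 fit 7, so the counts of the 2 fits do not compare the extent of change. All 33 genes called higher at ZT6 also rose at the other times. Their median log2 difference was 1.11 at ZT6 and 0.99 at the other times, and 29 of the 33 were larger at ZT6. Of the 16 genes called lower, 15 had the same sign and 9 fell at the other times, where their median was -0.33, against -0.73 at ZT6. All 16 falls were larger at ZT6, which is the time at which they were selected. In the other direction, the 62 genes that rose by over 1.5-fold at the other times were all positive at ZT6, 51 with an unadjusted p under 0.05, and 28 passed there, while of the 8 falls 2 passed. Some lists had more passing members over the other times, beside the 6% and 5.69% of all genes. Risen were 7 of 13 antigen presentation, 5 of 9 complement and 8 of 19 interferon response genes. So were 13 of 37 complex I and 17 of 76 cytosolic ribosomal protein genes, and no member of these lists fell. Of 16 bipolar genes, 5 fell and none rose. These lists were picked after their values were seen.

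**Figure D4:**
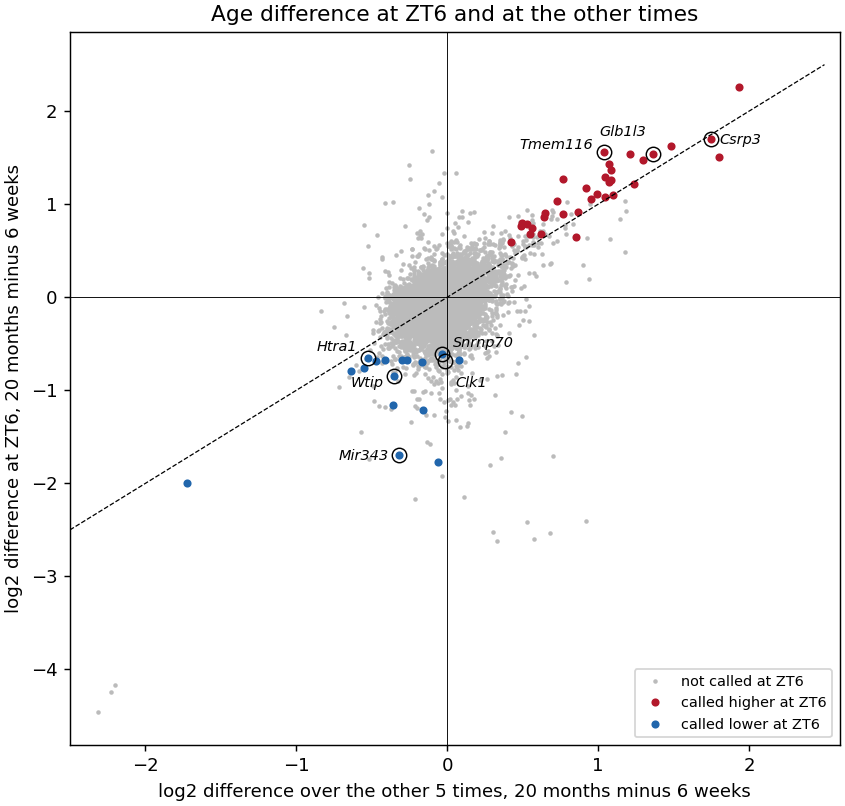
Each point is a gene, with the log2 age difference over the other 5 times on the x axis and that at ZT6 on the y axis, and the dashed line marks equal values; named genes are ringed. The called rises lie along the line, whereas Mir343, Snrnp70 and Wtip lie further from 0 at ZT6 than at the other times.

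On the scale of log2(RPKM + 0.5), the size over the other times was close to that at ZT6 for some named rises and smaller for others. Csrp3 differed by 1.75 ± 0.13 (SE) over the other times, Glb1l3 by 1.36 ± 0.07 and Gsc2 by 1.30 ± 0.11, each close to its ZT6 value. The levels themselves differed between times, which was not tested here. Tmem116 averaged 5.86 ± 0.255 RPKM in aged and 1.67 ± 0.2304 RPKM in young libraries at ZT6 (SD, n = 3 and 4), and 2.31 ± 0.359 RPKM in aged and 1.22 ± 0.153 RPKM in young libraries at ZT22 (n = 4 each). ZT22 was the time of its lowest aged mean. At ZT10 it averaged 5.26 ± 0.494 RPKM in aged and 1.88 ± 0.132 RPKM in young libraries (n = 4 and 3). The difference for Tmem116 was 1.04 ± 0.06 (SE) over the other times and 1.56 at ZT6. The test of that gap gave 0.51 ± 0.13 (SE), with an unadjusted p of 0.000462 and an adjusted p of 0.317. Ly75 differed by 0.77 ± 0.10 (SE) over the other times and 1.27 at ZT6, a gap of 0.49 ± 0.20 (adjusted p = 0.683). Its aged and young means were 1.13 and 0.287 RPKM at ZT2, and 2.17 and 0.553 RPKM at ZT10. At ZT22 they were 0.552 and 0.279 RPKM. At such low levels the added 0.5 RPKM shrinks the difference, and its part in the gap was not tested.

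Some of the falls also passed the test over the other times, and others did not. Htra1 differed by -0.52 ± 0.06 (SE, adjusted p = 3.33e-08) and Serinc5 by -0.63 ± 0.06 (adjusted p = 1.79e-09) over the other times. Snrnp70 differed by -0.03 ± 0.07 (adjusted p = 0.802), Gas1 by -0.26 ± 0.10 (adjusted p = 0.0720) and Mir343 by -0.32 ± 0.17 (adjusted p = 0.205). The gap between ZT6 and the other times was -0.57 ± 0.18 (SE) for Snrnp70 and -1.39 ± 0.40 for Mir343, and neither passed (limma, adjusted p = 0.459 for Snrnp70 and adjusted p = 0.440 for Mir343). Snrnp70 averaged 25.6 ± 4.61 RPKM in aged and 25.4 ± 2.03 RPKM in young retinas at ZT2, 29.0 ± 2.16 RPKM in aged and 44.5 ± 4.77 RPKM in young retinas at ZT6, and 34.7 ± 3.16 RPKM in aged and 38.8 ± 1.86 RPKM in young retinas at ZT10. The young level was thus highest at ZT6 and the aged level at ZT10.

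**Figure D5:**
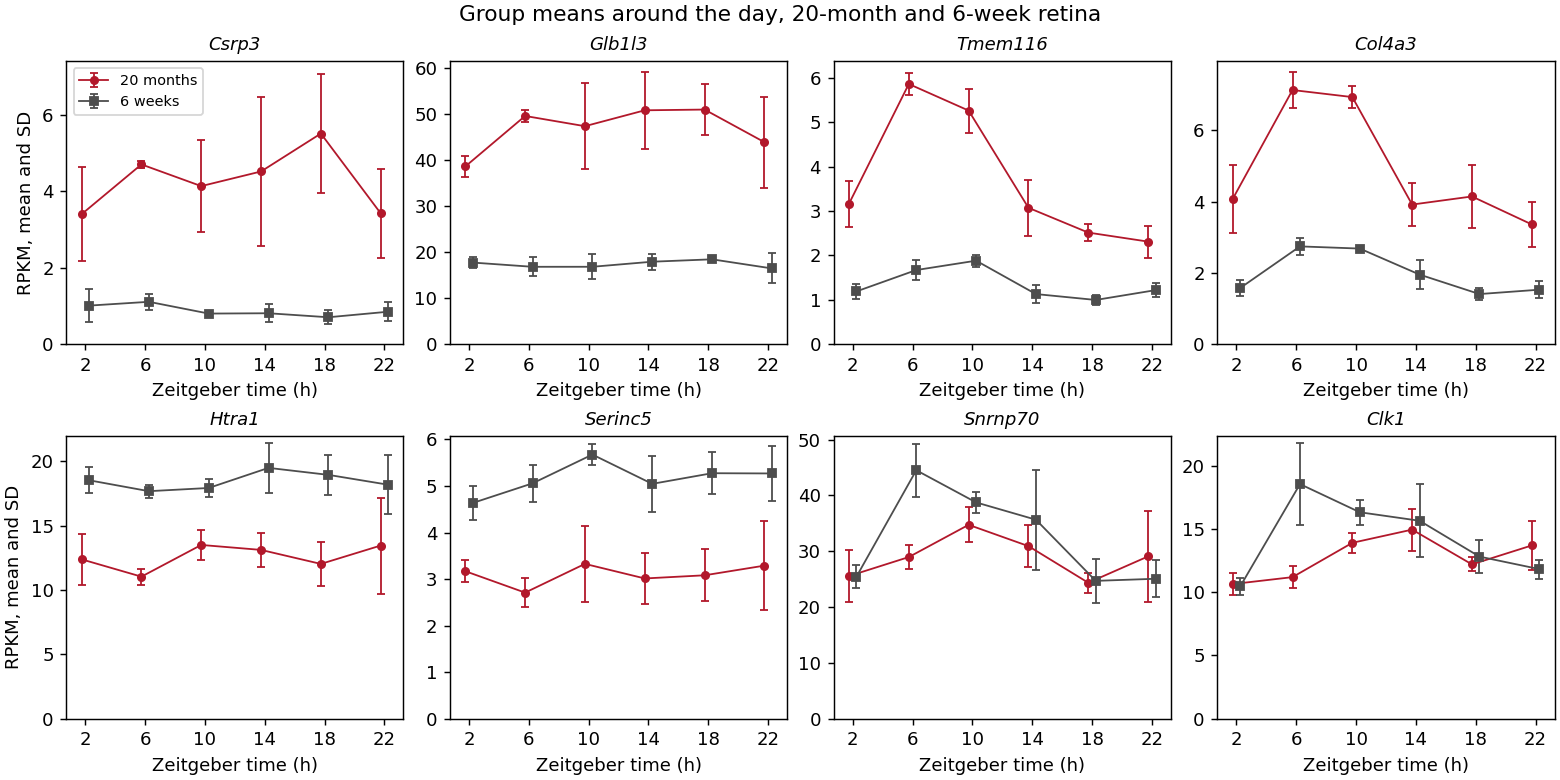
Mean RPKM and SD of 8 genes at the 6 zeitgeber times, with 20-month retinas as circles and 6-week retinas as squares, 3 or 4 libraries per point and without aged ZT6 replicate 3 and young ZT10 replicate 4. Csrp3, Glb1l3, Tmem116 and Col4a3 stay above and Htra1 and Serinc5 below the young level at every time, while the means of Snrnp70 and Clk1 lie farthest apart at ZT6.

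The gap between ZT6 and the mean of the other times was tested for every gene in a fit of all 12 groups. No gene passed at an adjusted p under 0.05 (limma), and 891 genes (5.87%) had an unadjusted p under 0.05. Without young ZT6 replicate 1, 4 genes passed: Clk1, Eno3, Rsrc2 and Srsf1, of which the last 2 were named after their values were seen. Apart from clone names, pseudogenes and genes under 2 RPKM in both ages, the 6 genes with the smallest p are described, and all had a lower mean in the aged retina at ZT6. The noncoding A430105J06Rik, left out for its clone name, had the second smallest p of all genes at 2.43e-05 (adjusted p = 0.126).

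Clk1, a kinase that phosphorylates splicing factors of the SR family, came first. It had 11.02, 10.4 and 12.1 RPKM in aged libraries and 13.9, 20.8, 20.6 and 18.9 RPKM in young ones at ZT6, with young replicate 1 well below the other young libraries. The age difference was -0.69 at ZT6 and -0.02 over the other times, and the gap was -0.66 ± 0.13 (SE, unadjusted p = 7.95e-06, adjusted p = 0.121). At ZT2 Clk1 averaged 10.6 ± 0.857 RPKM in aged and 10.4 ± 0.661 RPKM in young retinas, and at ZT10 13.9 ± 0.804 RPKM in aged and 16.3 ± 1.00 RPKM in young retinas.

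Eno3, the muscle form of the glycolytic enzyme enolase, averaged 8.72 ± 0.882 RPKM in aged and 12.0 ± 0.957 RPKM in young libraries at ZT6, and its gap was -0.41 ± 0.08 (SE, adjusted p = 0.126). Commd4, Zfp354a, Rfc4 and Hnrnpl had gaps of -0.37, -0.47, -0.55 and -0.23, each at an adjusted p of 0.317. Hnrnpl, an RNA-binding splicing regulator, was the most abundant of the 6 at 58.5, 60.4 and 69.6 RPKM in aged libraries and 73.2, 73.9, 76.4 and 66.6 RPKM in young ones, which overlap. Rfc4, a subunit of the clamp loader of DNA replication, had 3.91, 5.54 and 4.10 RPKM in aged libraries and 6.62, 5.78, 6.56 and 6.04 RPKM in young ones. Aged replicate 3, not in this fit, lay above every young ZT6 library for Rfc4 at 8.78 RPKM and for Zfp354a at 5.16 RPKM. It lay below every young ZT6 library for Clk1, Eno3, Commd4 and Hnrnpl.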

How the data were processed

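The authors deposited RPKM values, 1 column per library and unpooled, from poly(A)-selected RNA of retinas of separate mice. Quality control by FastQC 0.23.4, alignment software HISAT2 2.2.1, Subread 2.0.6 and the build GRCm39 are listed in the submitters' processing notes. The sources used here give neither the annotation release nor the strand setting of the counting. Values of 47 libraries were used, and 1 column that matched no sample was left aside. Symbols came from a table of gene names, and exon lengths, biotypes and overlaps from GENCODE M21, on the earlier build GRCm38. Promoter and microRNA sequences are from RefSeq.

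Since RPKM values are not counts, limma (version 3.58.1, R 4.3.3) was run on log2(RPKM + 0.5), with an intensity trend in the moderation and Benjamini-Hochberg adjustment. This scale understates folds of low genes. A call took a fold over 1.5 besides an adjusted p below 0.05. The fit was checked on simulated reads. The changed genes were drawn from those with a mean of at least 2 RPKM, so the shares do not cover lower genes. Of 67 genes changed by a fold of 1.5, 55.22% passed the adjusted p, so such changes were often missed. Of these 67, 29.85% were called. That share is no measure of power, since a fold equal to the fold minimum leaves many estimates below it. Of 67 genes changed by a fold of 2, 91.04% were called. Among 14890 genes tested, 5 unchanged ones passed. The reads were drawn for each gene independently, without shifts shared by many genes of a library. Whole reads, within 0.01 of a read, were recovered for all 37323 genes above 0. For 4544 of them the gene length was itself taken as the smallest that gives whole numbers, which fixes that outcome. The recovered reads gave depths of 32.0 to 43.9 M and a limma voom alternative. Replicates differed by more than sampling noise (mean chi-square per gene 11.2 to 295 over 12 pairs). The values from 220 to 295 belong to the pairs with aged replicate 3, and the pairs without it ran from 11.2 to 63.7. The series' design text names edgeR for the authors' own tests, and it was not used here.

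Named genes were up to 14 rises and 14 falls by size among called genes without overlap, with at least 2 RPKM in 1 age and no clone name or pseudogene, up to 4 passing members of each list by adjusted p, and, under the same conditions on name and level, the 6 smallest p-values for ZT6 against the other times. Marker lists were compared by their summed RPKM in two-sided exact permutation tests. The comparison, the members, the lists and the rules were chosen with earlier results of these data known. Alternatives changed the libraries, pseudocount, filter, scaling, block, moderation, weights, unit and fold minimum.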

Additional observations from a re-analysis of the deposited data

Results flagged for a closer look

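In each group of 4 ZT6 libraries, the named genes and the summed marker levels were screened for a library whose distance from its nearest neighbour passed Dixon's critical value for 4 samples, 102 groups of values in all. For independent random values, about 1 such case in 20 groups is found. The named genes were chosen without aged replicate 3, and the groups share libraries, so the 5 found cannot be set against that rate. In 3 of them the library was aged replicate 3, with Csrp3 at 3.28 RPKM, Glb1l3 at 72.9 RPKM and Gsc2 at 5.69 RPKM. Aged replicate 1 stood apart in the summed level of retinal pigment epithelium markers, at 65.2 RPKM. Young replicate 1 stood apart in red blood cell markers, at 97.3 RPKM.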

How the results depend on the processing

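Depth limits the low genes most, and with 3 against 4 libraries the counts move with single libraries. Of the 49 called genes, each kept its sign in every fit that tested it (45 to 49 per fit). None of the 27 named calls changed sign among 540 refitted values, of which 361 stayed past the threshold. Since the called genes had no overlap between the ages, leaving out a library or changing the pseudocount could not turn a sign. That held for 189 of the 540 values, those without 1 library, and for those with another pseudocount. The rises (33) and falls (16) numbered 9 and 0 with aged replicate 3, 12 and 1 with it and median-ratio scaling, 51 and 37 from 12 group means, 69 and 67 with library weights over 8 libraries (replicate 3 had a weight of 0.0664), and 18 and 2 with no filter, over 30610 genes. Quantile normalization gave 10 falls, and dropping the fold minimum gave 25. Leaving out 1 library gave 13 to 30 rises and 1 to 20 falls. The labels do not say whether equal replicate numbers mark mice handled together. Deviations of same-numbered libraries 1, 2 and 4 correlated at -0.12, -0.11 and -0.38, and so few correlations cannot decide it. The replicate block, in which young replicate 3 has no partner, gave 0 rises and 0 falls, with 787 genes at an unadjusted p under 0.05 (limma). Over the other times, young ZT10 replicate 4 lowered the counts to 362 rises and 176 falls. The test of ZT6 against the other times called 1 gene after median-ratio scaling and 1 with the replicate block, Clk1 in both, 2 with aged replicate 3 and 2 with young ZT10 replicate 4 as well (Clk1 and A430105J06Rik), and 0 to 4 without single ZT6 libraries. List members that rose (4) numbered 1 with replicate 3 and 1 to 4 without single libraries, and members that fell (0) numbered 0 to 5. With replicate 3, the summed amacrine and ganglion cell markers turned to -0.18 and -0.10 on the log2 scale. No marker list passed in either case. The smallest exact p possible was 0.0286 in both, so a single list or a few could not pass after adjustment over 18 lists. The lack of a passing list therefore does not show equal levels. Refits of the ZT6 test with replicate 3 and scaling together, of the time test without single libraries or with 1 doubtful library, and of list members without single libraries were added once the data had been seen. In the cases above the cause was not tested.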
